A study of Mus musculus with 8 samples.

Results

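Cycling blood monocytes were the monocytes of the blood libraries in which at least 3 transcripts of 5 proliferation genes were counted. They numbered 213 of 3771 blood monocytes, which in turn came from 18859 blood barcodes that passed the cell filters and from 32121 in the 4 libraries of the series. The monocytes were barcodes with at least 500 gene UMIs, 200 genes, at most 25% mitochondrial UMIs and 20 hashtag UMIs, in which Ly6c2, Ccr2, F13a1 and Vcan together had 10 UMIs or more and S100a8, S100a9, Retnlg, Csf3r and Cxcr2 together took under 5% of gene UMIs. A UMI, or unique molecular identifier, marks one captured transcript. A monocyte was called cycling when Mki67, Top2a, Birc5, Stmn1 and Pclaf together reached 3 UMIs, so the levels of these genes, and of the monocyte and neutrophil genes of the gate, are given below as a description of the choice.

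Mice of C57BL/6J background carried MC38 colon carcinoma tumors under the skin of the flank. The tumors received 1 dose of 20 Gy ionizing radiation (IR) or were left unirradiated (control), and CD45+CD11b+Ly6Chi cells were sorted from blood 3 days later, stained with TotalSeq-B hashtag antibodies to CD45 and MHC class I, and run on the 10x Chromium 3′ kit v3.1. Hashtag B0301 marked WT mice, which had floxed Ythdf2 alleles without Cre, and B0302 marked Ythdf2 cKO mice, which were Lyz-Cre+ Ythdf2 fl/fl. The Cre sits in the Lyz2 locus and is active across the myeloid lineage rather than in monocytes alone. A cell was labelled WT when B0301 UMIs were at least equal to B0302 UMIs, and cKO when B0302 UMIs were at least 4 times B0301 UMIs. Each of the 4 groups (control WT, control cKO, IR WT and IR cKO) was 1 pool of mice, so no test between groups was possible. All intervals below are 95% intervals that cover counting error only, and not the spread between mice.

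Cell division runs through S phase, in which DNA is copied by the MCM helicase, the PCNA clamp and the polymerases while ribonucleotide reductase and thymidylate synthase supply nucleotides, and through G2 and mitosis, in which cyclin B, the Aurora kinases and the centromere proteins condense and separate the chromosomes. Classical Ly6C-high monocytes are made in the bone marrow from dividing progenitors and are released to blood, where they usually no longer divide and can turn into nonclassical Ly6C-low monocytes under the transcription factor Nr4a1. Of the genes that chose the cells, Mki67 encodes the Ki-67 coat protein of mitotic chromosomes, Top2a encodes topoisomerase II alpha, Birc5 encodes survivin of the chromosomal passenger complex, Stmn1 encodes the microtubule regulator stathmin, and Pclaf encodes a PCNA-associated factor.

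The promoters of these genes are shown because many genes of G2 and mitosis share the motifs CCAAT and TTTGAA near the start site, while many S phase genes carry an E2F motif. Sequences are from RefSeq (GRCm38.p6) and cover the 150 bases before the annotated start, on the strand of the gene. Capitals mark CCAAT and TTTGAA on either strand, so that they also appear as ATTGG and TTCAAA. The intervals are chr7:135716380-135716529 (Mki67, minus strand), chr11:99024190-99024339 (Top2a, minus strand), chr11:117849087-117849236 (Birc5, plus strand), chr9:65890173-65890322 (Pclaf, plus strand), chr9:70421555-70421704 (Ccnb2, minus strand) and chr2:164769779-164769928 (Ube2c, plus strand). Stmn1 (gene at chr4:134468320-134473843 in mm10, plus strand) is named only. Ccnb2 (cyclin B2) and Ube2c (the ubiquitin-conjugating enzyme of the anaphase-promoting complex) played no part in choosing the cells and carry results below.
Mki67: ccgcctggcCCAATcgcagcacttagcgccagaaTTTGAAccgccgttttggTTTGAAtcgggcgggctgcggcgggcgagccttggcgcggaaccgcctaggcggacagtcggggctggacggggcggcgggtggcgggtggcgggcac
Top2a: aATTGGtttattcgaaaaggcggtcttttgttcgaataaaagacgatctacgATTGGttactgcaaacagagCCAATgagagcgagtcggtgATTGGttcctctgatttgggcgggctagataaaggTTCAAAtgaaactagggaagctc
Birc5: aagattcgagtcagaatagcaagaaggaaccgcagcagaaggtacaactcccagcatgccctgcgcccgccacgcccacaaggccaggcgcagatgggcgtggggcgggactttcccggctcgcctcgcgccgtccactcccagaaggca
Pclaf: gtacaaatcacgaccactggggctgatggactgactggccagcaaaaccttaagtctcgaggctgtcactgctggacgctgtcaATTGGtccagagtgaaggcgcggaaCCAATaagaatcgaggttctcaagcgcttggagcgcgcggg
Ccnb2: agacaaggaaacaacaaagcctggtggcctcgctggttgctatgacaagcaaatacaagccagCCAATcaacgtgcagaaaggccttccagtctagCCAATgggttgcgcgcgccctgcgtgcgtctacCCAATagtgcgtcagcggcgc
Ube2c: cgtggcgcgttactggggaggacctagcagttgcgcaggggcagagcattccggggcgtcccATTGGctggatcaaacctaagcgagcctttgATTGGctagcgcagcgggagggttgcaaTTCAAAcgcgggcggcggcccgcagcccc
Over the table's whole window, from 250 bases before to 50 after the start, 23 of 27 promoters of the G2/M gene list held CCAAT (85.2%) and 20 held TTTGAA (74.1%). In the S phase list, 15 of 24 held CCAAT (62.5%), 3 held TTTGAA (12.5%) and 9 held an E2F motif (37.5%), for which TTTGGCGC, TTTCGCGC and GGCGGGAA were searched on both strands. Among all 27025 promoters the shares were 37.9%, 18.1% and 3.03%, and matches of the same or different motifs overlapped in 170 promoters. Both CCAAT and TTTGAA were found in 19 of the 27 G2/M promoters (70.4%) and in 7.12% of all promoters. A match is a description of the letters only.

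The labels were checked against the targeted gene. Ythdf2, which encodes an m6A reader that promotes decay of methylated RNA (chr4:132184912-132212303 in mm10), went against the label. In members it stood at 25.4 CPM (UMIs of a gene per 1000000 gene UMIs) in control WT, 600 in control cKO, 54.3 in IR WT and 436 in IR cKO. The reads are 3′ tags, which need not cover the deleted part, so this level does not test the deletion. Lyz2, the lysozyme gene that carries the Cre, stood at 16546 and 20920 CPM in members labelled WT, and at 14.8 and 70.5 in those labelled cKO. The groups are therefore given as labelled, and every direction between WT and cKO rests on the hashtags. Hashtag purity had medians of 95.5% to 99.1% over the members of the groups.

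In the control mice, 7 of 1057 monocytes labelled WT were cycling, which is 0.662% (0.267 to 1.36%). In control mice labelled cKO it was 9 of 841, or 1.07% (0.490 to 2.02%). After IR the share was 77 of 996 in cells labelled WT, or 7.73% (6.15 to 9.57%), and 120 of 877 in cells labelled cKO, or 13.7% (11.5 to 16.1%). The IR groups held 197 of the 213 cycling monocytes, and the intervals of control and IR did not overlap under either label.

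The share was 7.07 percentage points higher after IR than in control in cells labelled WT (5.41 to 8.93), a ratio of 11.7 (5.40 to 30.003). In cells labelled cKO it was 12.6 points higher (10.3 to 15.1), a ratio of 12.8 (6.51 to 28.6). Within the IR library, cells labelled cKO exceeded cells labelled WT by 5.95 points (3.16 to 8.81), a ratio of 1.77 (1.32 to 2.39). Within the control library the same difference was 0.408 points with an interval that spans 0 (-0.455 to 1.42). Treatment and library were the same split, so an effect of IR and a difference between the 2 blood libraries cannot be told apart, whereas the cells labelled WT and cKO of 1 treatment shared a library.

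**Figure D1:**
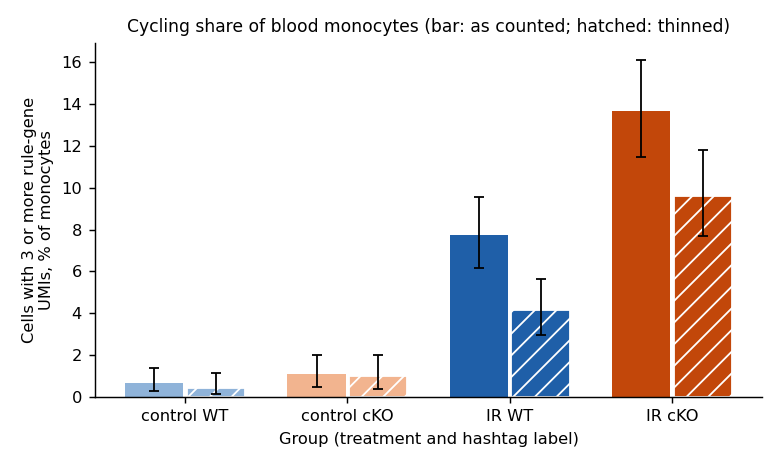
Share of blood monocytes called cycling, in % of monocytes, in each group, as counted (plain bars) and after each cell was thinned to 8000 UMIs (hatched bars), with 95% Clopper-Pearson intervals for counting error. Both IR groups stand above both control groups under either count, and the 13.7% of IR cKO is the highest share.

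Depth differed between the groups and moved with the shares. The median gene UMIs of cycling and other monocytes were 11056 and 10147 in control WT, 11587 and 9962 in control cKO, 13985 and 12236 in IR WT, and 13798 and 12755 in IR cKO. When every cell was thinned to 8000 UMIs, which left out 45 to 151 shallower cells a group, the shares were 4 of 906 (0.442%), 7 of 719 (0.974%), 39 of 939 (4.15%) and 80 of 832 (9.62%) in the same order. The thinned differences were 3.71 points between IR and control in cells labelled WT, 8.64 in cells labelled cKO, and 5.46 between cKO and WT after IR. At this matched depth the order of the groups was the same. All shares, and the differences in points between IR and control, were smaller at the same threshold of 3 UMIs. The thinned ratios of IR to control were 9.41 (3.39 to 36.2) in cells labelled WT and 9.88 (4.58 to 25.4) in cells labelled cKO. The thinned ratio of cKO to WT after IR was 2.32 (1.56 to 3.49). Thinned to 1500 UMIs, 0, 2, 4 and 17 cells passed, and the difference between IR and control was 0.402 points in cells labelled WT, with an interval that spans 0 (-0.0355 to 1.03), and 1.70 in cells labelled cKO (0.744 to 2.86).

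The groups also differed among the cells that did not pass. No rule-gene UMI at all was found in 953 control WT monocytes (90.2%), 738 control cKO (87.8%), 723 IR WT (72.6%) and 588 IR cKO (67.0%). Just outside the threshold, with 2 UMIs, lay 16, 14, 44 and 44 cells. Just inside it, with 3 UMIs, lay 4, 3, 22 and 26 cells. Cells with 12 or more rule-gene UMIs numbered 0 in control WT, 3 in control cKO, 13 in IR WT and 33 in IR cKO.

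**Figure D2:**
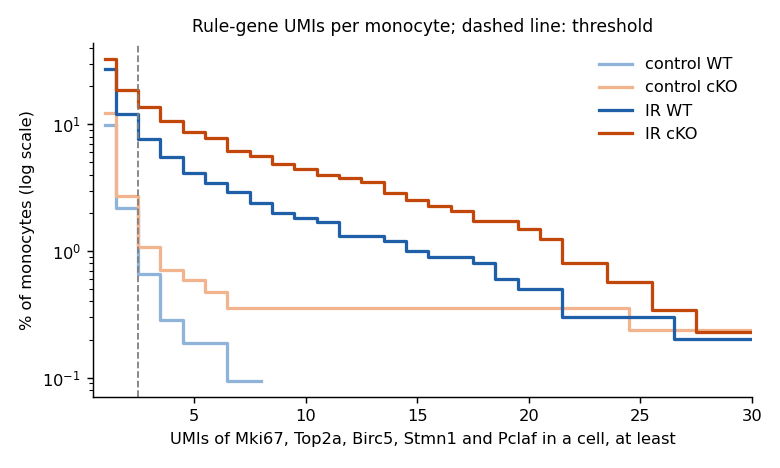
Share of blood monocytes (%, log scale) with at least the number of rule-gene UMIs on the x axis, for each group, with the threshold as a dashed line. The IR curves lie above the control curves from 1 to 21 UMIs, beyond which the few control cKO cells reach or pass an IR curve at some values, and the curves fall without a gap at the threshold.

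The selecting UMIs came mostly from Stmn1, which gave 304 of 605 in IR WT and 516 of 1064 in IR cKO. Pclaf gave 112 and 175 UMIs there, Mki67 91 and 168, Birc5 79 and 186, and Top2a 19 and 19. In control WT the 7 cells held 30 UMIs, of which Stmn1 gave 20 and Birc5 1. The 9 control cKO cells held 180, of which a single cell gave 102 (56.7%). At least 2 of the rule genes were detected in 6 of 7, 6 of 9, 65 of 77 and 111 of 120 members, so 25 of the 213 rested on 1 gene.

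The same count was made in barcodes of other kinds. Of the barcodes rich in the neutrophil genes, 1 of 6009 in the control library (0.0166%) and 5 of 6011 in the IR library (0.0832%) had 3 rule-gene UMIs, at median depths of 2644 and 2658 UMIs. Among the neutrophil-gene-rich barcodes with 8000 UMIs or more, the counts were 1 of 215 (0.465%, from 0.0118 to 2.56%) and 4 of 100 (4.0%, from 1.10 to 9.93%), and the latter interval overlaps that of IR WT monocytes. The part of such background in the shares was not tested. In barcodes with at most 100 UMIs, taken as free RNA, Stmn1 was at 10.3 CPM in the control library and 18.8 in the IR library. Only 24 barcodes were shared between the blood libraries, and 1 IR member's barcode was also in the control library.

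Values of other cell types were read in each member. A sum of 5 or more UMIs of the T and NK cell list was found in 1, 2, 1 and 0 members of control WT, control cKO, IR WT and IR cKO, and 50 or more of the MHC class II list in 1, 0, 8 and 5. Only 1 member, in control cKO, held 50 or more UMIs of the progenitor list, with 463, and it was the same cell that gave 102 rule-gene UMIs, with 34125 gene UMIs in all. In control WT, 1 member held 162 T and NK UMIs and no Lyz2. At least 5 UMIs of the dendritic cell list were found in 2, 0, 5 and 2 members, and the 2 in control WT had 4 and 6 Lyz2 UMIs, where the other control WT members had 0, 268, 325, 341 and 360. No member reached 5 UMIs of the B and plasma cell list, the erythroid list or the platelet list. Without the cells with at least 5 T and NK, 50 MHC class II or 50 progenitor UMIs, the members were 5, 7, 68 and 115. These are the cells with markers of other types that are left out below. UMIs of the dendritic cell list were not a ground for leaving a cell out. Doublet calling marked 0, 0, 5 and 1 members.

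The label of cycling cells was then checked with genes outside the rule. In the IR groups, where 77 and 120 cells gave 1160207 and 1759840 UMIs, Ccnb2 was detected in 72.7% of members labelled WT and 78.3% of those labelled cKO. It was detected in 6.6% and 6.3% of the other monocytes. The Ccnb2 level in members was 88.8 CPM in control WT from 7 UMIs (35.7 to 183), 104 in control cKO from 14 (56.7 to 174), 178 in IR WT (154 to 204) and 212 in IR cKO (191 to 235). Other monocytes were at 1.66, 1.27, 7.88 and 6.89. The pooled level of members was above that of the other monocytes in each of the 4 groups, but few cells made it up in control. In control WT 1 cell gave 5 of the 7 UMIs, and 3 of 7 members had any. In control cKO 1 cell gave 10 of the 14 UMIs, and 5 of 9 members had any. The intervals of both control groups overlapped that of IR WT members and lay below that of IR cKO members.

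Across all genes, a gene was called when its log2 ratio of summed CPM exceeded 1 in size with at least 50 UMIs over both sides, after 1 UMI scaled to depth was added. In cycling against other monocytes, 60 of 8663 genes were higher in both IR groups (0.693%) and 178 were lower in both (2.05%). The counting interval excluded 0 for 59 and 134 of them. In all 4 groups, 26 of 8224 genes were higher (0.316%) and 59 lower (0.717%). With TMM scaling the latter split was 16 higher and 68 lower. The control members amount to 78808 and 134937 UMIs, and taken singly they gave 1047 genes higher and 2455 lower in control WT and 843 and 1814 in control cKO, against 134 and 551 in IR WT and 108 and 453 in IR cKO. The gene levels below are therefore those of the IR groups unless stated. The rule chose the cells on 5 of these genes, and cells of 1 pool of mice are not replicates, so the counts describe the cells and test nothing.

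Genes of G2 and mitosis were higher in members. Of 12 measured in both IR groups, 6 were higher in both and none lower, with median log2 ratios of 0.62 in IR WT and 1.31 in IR cKO against about -0.06 for all genes. Ccnb2 was higher by 4.47 in IR WT (4.13 to 4.87) and 4.91 in IR cKO (4.56 to 5.34) on the log2 scale. Cdca8, which encodes borealin of the chromosomal passenger complex, was higher by 3.95 and 3.93. Cdca3, a regulator of mitotic entry, was higher by 3.17 and 3.49. These genes of mitotic entry and chromosome segregation had the largest smaller-of-both ratios among the 12 measured genes of the list.

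Cenpa, the histone variant of centromeres, stood at 116 CPM in IR WT members and 157 in IR cKO members, against 18.8 and 13.5 in other monocytes. Ube2c stood at 81.9 and 119 against 19.6 and 23.4, log2 ratios of 2.05 and 2.34. Tacc3, a spindle protein, was higher by 1.11 in IR WT with an interval that spans 0 (-0.01 to 2.16) and by 3.33 in IR cKO (2.70 to 4.15). The list was not raised as a whole. Aurkb, the Aurora B kinase, had log2 ratios of -0.25 and -0.05, and Racgap1, a cytokinesis regulator, -0.25 and -0.08.

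**Figure D3:**
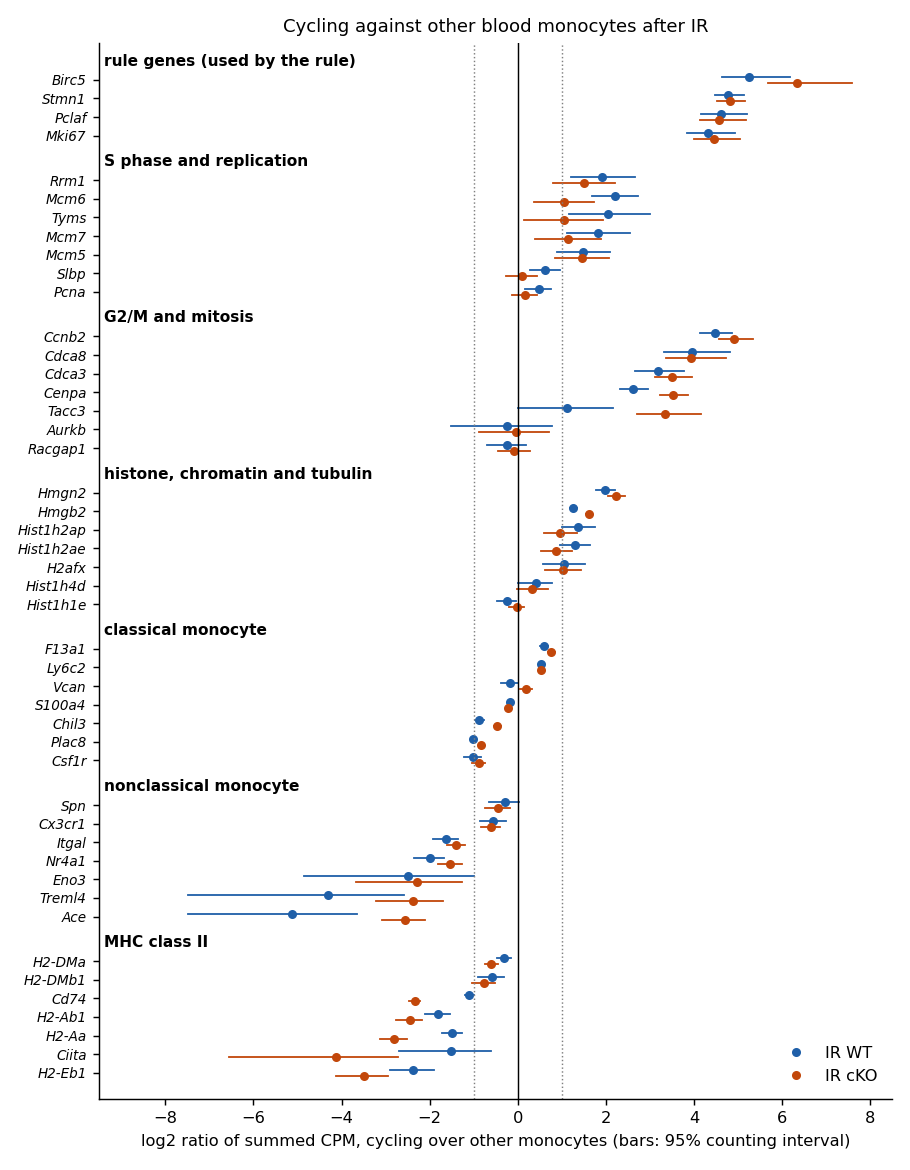
Log2 ratio of summed CPM, cycling over other blood monocytes, for the named genes of 7 lists in IR WT (blue) and IR cKO (orange), with bars for the 95% counting interval and dotted lines at 1 and -1. The points of Ccnb2, Cdca8 and Cdca3 lie right of 3 in both groups, while Nr4a1, Itgal, Treml4 and Ace lie left of -1.

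S phase genes were also higher in the summed members, in part through few cells. In IR WT 7 members gave 377 of the 647 UMIs of the list, and in IR cKO 3 members gave 108 of 583. Of 12 measured, 6 were higher in both IR groups and none lower, with medians of 1.61 in IR WT and 0.98 in IR cKO, the former above and the latter below that of the G2/M list. Rrm1, the large subunit of ribonucleotide reductase, was higher by 1.92 and 1.49, and Tyms, thymidylate synthase, by 2.05 and 1.04. The MCM helicase genes Mcm6 (2.19 and 1.05), Mcm7 (1.83 and 1.13) and Mcm5 (1.49 and 1.44) were also higher. Pcna, detected in 54.5% and 51.8% of the other monocytes too, had log2 ratios of 0.47 and 0.15, and Slbp, which binds histone mRNA, 0.62 and 0.09.

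Chromatin genes were higher from a high base. Of 12 histone, chromatin and tubulin genes, 3 passed the limit in both IR groups, with medians of 0.93 and 0.90. Hmgn2, a nucleosome-binding protein, stood at 223 and 241 CPM in members against 56.3 and 51.3 in others. Hmgb2, a DNA-bending protein, was higher by 1.25 (1.17 to 1.33) and 1.61 (1.55 to 1.68). H2afx, the histone variant phosphorylated at DNA breaks, was higher by 1.05 and 1.02. Hist1h1e, a linker histone, had log2 ratios of -0.25 and -0.02.

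Outside the lists, 8 genes were named for the largest smaller-of-both ratio in the IR groups, and several of them are genes of division. Cdkn3, a phosphatase of cyclin-dependent kinases, was higher by 3.65 and 4.50. Spc24 of the kinetochore was higher by 3.52 and 3.66, Cks1b, a subunit of cyclin-dependent kinase complexes, by 2.74 and 3.35, Cenpw of the centromere by 2.22 and 2.55, and Knstrn of the spindle and kinetochore by 2.55 and 2.09. Rdm1 was higher by 2.28 and 2.08, and Gcat, an enzyme of threonine breakdown, by 2.49 and 2.81. Spp1, the secreted protein osteopontin, was higher by 3.22 and 3.36, from 39 UMIs in 26 of 77 members and 42 UMIs in 32 of 120.

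Regulators that hold cells out of the cycle showed small ratios. None of 12 CDK inhibitor and quiescence genes passed the limit in both IR groups, with medians of -0.24 and -0.45. Klf2, a transcription factor of resting leukocytes, had log2 ratios of -0.76 and -0.69, and Btg1, an antiproliferative gene, -1.003 and -0.44. Cdkn1a, the p53 target p21, had -0.13 and -0.27. No member of the p53 target list, with 10 measured, passed the limit in both groups (medians 0.05 and -0.32), nor did any of 5 G1 cyclin and Myc pathway genes (0.28 and 0.05). The values of ribosome biogenesis (10 measured, 0.51 and 0.19), glycolysis (7, 0.22 and 0.35) and oxidative phosphorylation genes (8, 0.32 and 0.39) were above the median of all genes, with none past the limit in both groups.

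Within the cells after IR, the level of the G2/M list followed the number of rule-gene UMIs. Per 10000 gene UMIs, IR WT monocytes with 0, 1 and 2 rule-gene UMIs held 3.27, 3.89 and 4.05 G2/M-list UMIs. The 36 with 3 to 4 held 4.58, the 28 with 5 to 11 held 7.63 and the 13 with 12 or more held 17.2. In IR cKO the values were 3.003, 3.29 and 3.91 outside the threshold, then 5.05 in 44 cells, 8.91 in 43 and 18.4 in 33. Members with 3 to 4 rule-gene UMIs thus lay nearer to the cells just outside the threshold than to the members with 12 or more.

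**Figure D4:**
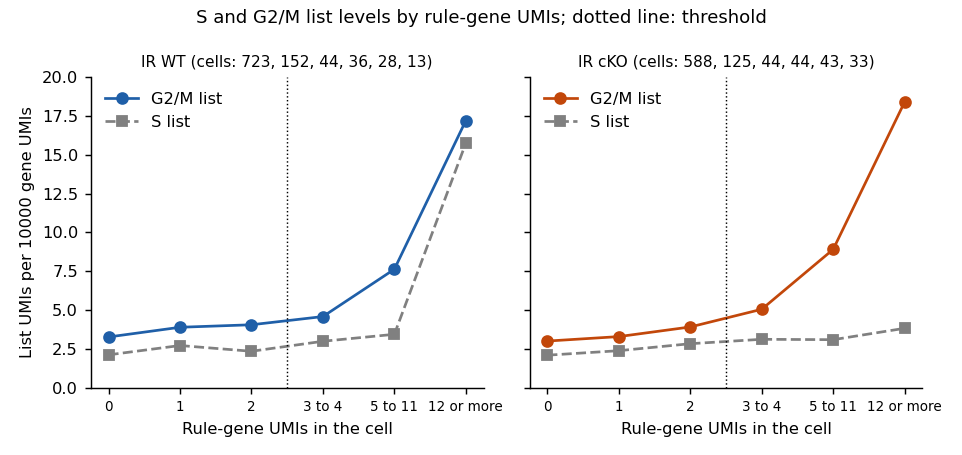
UMIs of the G2/M list (circles) and the S list (squares) per 10000 gene UMIs in monocytes grouped by rule-gene UMIs, for IR WT (left) and IR cKO (right), with the threshold as a dotted line. The G2/M level reaches 17.2 and 18.4 in cells with 12 or more rule-gene UMIs, and the S level reaches 15.7 in IR WT but 3.82 in IR cKO.

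The S list behaved otherwise, since a few cells held much of it. Per 10000 gene UMIs, members held 7.87 S-list UMIs in control WT, 19.0 in control cKO, 5.58 in IR WT and 3.31 in IR cKO, against 2.15, 2.13, 2.23 and 2.19 in other monocytes. Cells with 20 or more S-list UMIs numbered 1, 2, 7 and 3, and gave 47 of 62, 235 of 257, 377 of 647 and 108 of 583 S-list UMIs. Without these cells the S level was 2.21, 2.60, 2.63 and 2.80, and the G2/M level was 5.60, 9.57, 8.44 and 10.4. These cells were left out for their S-list UMIs, so a lower S level followed from the choice, and the other monocytes were not trimmed alike. The S level that remained was still above that of other monocytes in each group, by least in control WT. The G2/M level of the remaining members was above the 3.01 to 3.41 found in other monocytes. In control members with 3 to 4 rule-gene UMIs the pooled G2/M level was not above that of other monocytes. This rests on means of 3.6 and 3.25 list UMIs a cell in few cells, without an interval, and cannot tell a raised level from an unraised one. The 5 such cells in control WT held 3.17 G2/M-list UMIs per 10000, against 3.39 in other monocytes. The 4 in control cKO held 2.88, against 3.01.

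Counted per cell, G2/M-list UMIs exceeded S-list UMIs in 5 of 7 and 5 of 9 control members, in 54 of 77 IR WT members (70.1%) and in 102 of 120 IR cKO members (85.0%). The medians of the G2/M list were 4, 7, 8 and 10 UMIs, and those of the S list 3, 3, 4 and 4. In cells thinned to 8000 UMIs the shares after IR were 64.9% and 80.7% of members, against 57.2% and 52.7% of the other monocytes. Phase was not called from these lists, and the part of free RNA in them was not measured.

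**Figure D5:**
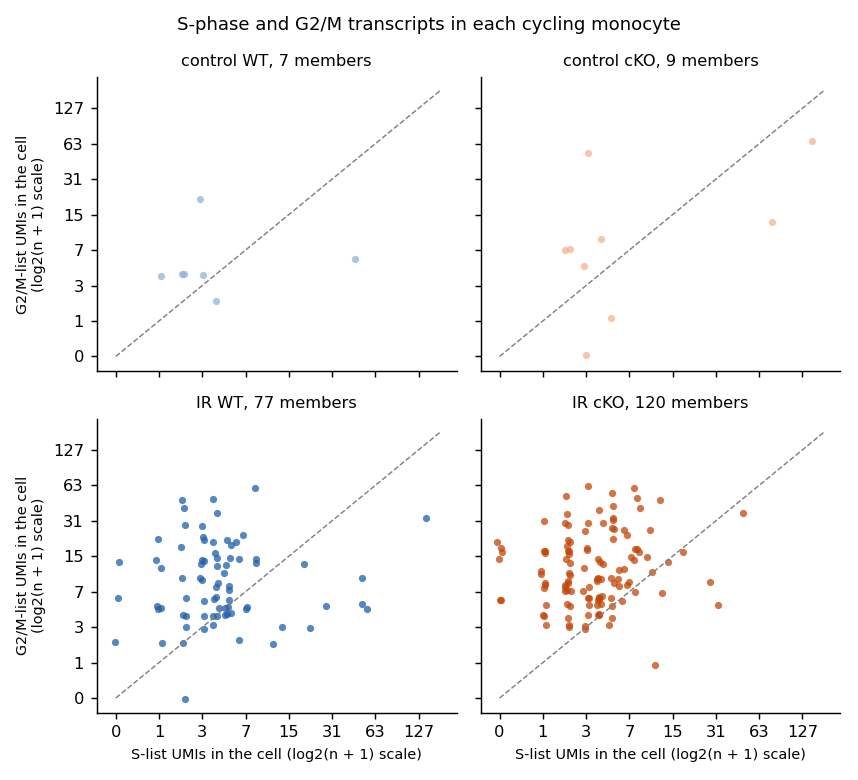
UMIs of the S list (x axis) and of the G2/M list (y axis) in each cycling monocyte, both on a log2(n + 1) scale with a small random shift of the points, for the 4 groups, with equality as a dashed line. Most IR members lie above the line at S counts of 0 to 7, and 7 IR WT members and 3 IR cKO members reach 20 S-list UMIs.

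Genes of classical monocytes differed in sign. Summed over the list, members had 10976, 12724, 14153 and 15017 CPM in control WT, control cKO, IR WT and IR cKO, below the 14576, 15910, 16520 and 16481 of the others. None of the 12 genes passed the limit in both IR groups. Of the genes that chose the monocytes, Ly6c2, the surface antigen of the sort, had log2 ratios of 0.53 and 0.54, and F13a1, coagulation factor XIII, 0.59 and 0.76. Outside them, Csf1r, the receptor for the growth factor CSF1, had -1.03 and -0.89, and Plac8 had -1.02 and -0.83.

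Nonclassical monocyte genes were lower. Of 9 measured, 5 were lower in both IR groups and none higher, with medians of -1.63 and -1.40. Nr4a1 stood at 152, 81.5, 62.1 and 72.7 CPM in members of control WT, control cKO, IR WT and IR cKO, and at 464, 401, 249 and 211 in other monocytes, so members were below others in each group. Itgal, the integrin alpha chain of LFA-1, was lower by log2 ratios of -1.63 and -1.40 after IR. Ace, angiotensin-converting enzyme, had 0, 0, 3 and 37 UMIs in members and 973 to 1222 in the other monocytes, a log2 ratio of -5.13 in IR WT (-7.49 to -3.66) and -2.57 in IR cKO (-3.09 to -2.11). Cx3cr1, the fractalkine receptor, had -0.55 and -0.61, and Spn, CD43, -0.30 and -0.46. At least 5 UMIs of the list were found in 60 of 77 (77.9%) and 97 of 120 (80.8%) members. The same was found in 84.8% and 92.1% of the other monocytes.

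Outside the lists, Hes1, a target of Notch signaling, had 1 and 6 UMIs in members after IR and 262 and 291 in the others. Adgre4, an adhesion receptor of nonclassical monocytes, had log2 ratios of -3.44 and -2.96. Both had 0 UMIs in the control members, which at that depth sets no useful limit. Smpdl3b, a lipid hydrolase of the list of NF-kB genes and study targets, was lower by log2 ratios of -2.61 and -2.54, and was the 1 gene of the 10 measured there that passed the limit in both groups.

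MHC class II genes were lower, and they moved with few cells. Of 7 measured, 5 were lower in both IR groups, with medians of -1.49 and -2.45. H2-Aa had log2 ratios of -1.49 in IR WT and -2.81 in IR cKO, and Cd74, the invariant chain, -1.10 and -2.34. Cells with 50 or more UMIs of the list made up 10.4% of IR WT members (4.59 to 19.4%) against 13.1% of the others, and 4.17% of IR cKO members (1.37 to 9.46%) against 15.2% of the others. Without the cells with markers of other types, H2-Aa had -1.20 and -0.83, and Cd74 -0.97 and -1.19. Some of those cells were left out for their UMIs of this list, so these values depend in part on that choice.

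Genes of T and NK cells were lower in members after IR, and came from few barcodes. All 3 measured genes of the list were lower in both IR groups. Klra8 and Ctsw, which are named outside the lists, had 0 UMIs in the IR members and 51 to 88 in the others. Without the cells with markers of other types, both were at 0 on both sides. Some of those cells were left out for their T and NK UMIs, so this fall follows in part from that choice. Interferon response genes had medians of -0.67 and -0.86 with 2 of 12 lower in both groups, Ifit3 by log2 ratios of -1.04 and -2.85 and Ifit2 by -1.44 and -2.66.

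Progenitor transcripts were present in some members. Prtn3, the granule protease proteinase 3, stood at 131 and 168 CPM in IR WT and IR cKO members against 50.3 and 73.5 in the others, log2 ratios of 1.38 (1.11 to 1.64) and 1.19 (0.99 to 1.39). Elane, neutrophil elastase, was higher by 2.55 in IR cKO (1.97 to 3.22) and by 0.76 in IR WT, where the interval spans 0 (-0.42 to 1.82). At least 5 UMIs of the progenitor list were found in 15 of 77 (19.5%) and 31 of 120 (25.8%) members and in 2.61% and 5.81% of the others. Mpo, myeloperoxidase, a defining gene of the list, had 1 and 2 UMIs in all IR members together. In control cKO the 250 Prtn3 UMIs came to 233 from the single progenitor-rich cell.

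Cell movement and growth factor genes mostly had small ratios. Of 12 adhesion and trafficking genes, Itgal alone passed the limit in both IR groups. Ccr1, a chemokine receptor, had log2 ratios of 0.61 (0.33 to 0.87) and 1.03 (0.80 to 1.26), and none of 7 growth factor receptors passed in both (medians -0.46 and -0.39). Of 6 suppressive and inflammatory genes, Cd274, the checkpoint ligand PD-L1, was lower in both, with 1 UMI in IR WT members (-2.76, from -8.29 to -0.45) and 1 in IR cKO members (-3.33, from -9.01 to -1.16).

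Members after IR were then compared with control members, which were few. Of 3346 genes measured under both labels, 54 were higher after IR under both (1.61%) and 8 were lower (0.239%), and the interval excluded 0 under both for 11 and 5. Taken singly, 412 of 3368 genes were higher (12.2%) and 112 lower (3.33%) in cells labelled WT. In cells labelled cKO, 446 of 4563 were higher (9.77%) and 178 lower (3.9%). TMM scaling shifted all log2 ratios by 0.30 and 0.15 and gave 667 and 41, and 620 and 116. With CPM and an interval that excludes 0, the counts were 104 and 77, and 133 and 139. The IR pools were far larger than the control pools, so a gene could reach 50 UMIs through the IR members alone. Lgals8, a galectin named outside the lists, had 0 UMIs in both control groups and 50 and 68 after IR, which bounds its log2 ratio at 0.18 and 0.80 or more. Of 7 G2/M genes measured, Ube2c alone was higher under both labels, with 1, 5, 95 and 210 UMIs in control WT, control cKO, IR WT and IR cKO, log2 ratios of 2.55 (0.18 to 8.01) and 1.66 (0.44 to 3.32). In other monocytes Ube2c was higher by 1.44 and 1.65. Ccnb2 had 0.99 (-0.07 to 2.33) and 1.02 (0.27 to 1.92) in members and 2.19 and 2.34 in others.

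Inflammatory genes were at very low counts in control members. Isg15, an interferon-induced ubiquitin-like protein, had 1 UMI in each control group and 169 and 168 after IR, log2 ratios of 3.36 (1.02 to 8.83) and 3.51 (1.19 to 8.999), against 0.17 and 0.49 in other monocytes. Il1b, the cytokine interleukin 1 beta, had 2, 5, 270 and 219 UMIs, with 3.12 (1.33 to 6.25) and 1.72 (0.50 to 3.38). A single cell gave 60 of the 270 and another 91 of the 219, without which the ratios were 2.78 (0.99 to 5.91) and 0.96 (-0.28 to 2.63). S100a9, a calprotectin subunit that the gate used, had 2.07 and 1.76, and 1.46 and 1.44 without the cells that gave 493 of 1370 and 244 of 1155 UMIs. Lower after IR under both labels were Tmem176b, a membrane protein, by log2 ratios of -1.52 (-2.35 to -0.63) and -1.96 (-2.59 to -1.33), Trib1, a pseudokinase of monocyte differentiation, by -1.39 and -1.63, and Mat2a, which makes the methyl donor S-adenosylmethionine, by -1.06 and -1.20. Tmem176b and Trib1 were also lower in other monocytes after IR, at -1.03 and -0.98 and at -0.91 and -0.66.

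The ratios of Pclaf and Pcna had opposite signs under the labels. Pclaf is a rule gene, so its values describe the choice of the cells. Pclaf had a log2 ratio of 1.31 in cells labelled WT and -1.89 in cells labelled cKO, and Pcna 0.57 and -1.89. Control WT members held only 3 Pclaf UMIs and 5 Pcna UMIs, no interval is given here, and the difference in sign was not tested. The control cKO values hold the single cell with 155 S-list UMIs, and without it Pclaf had -1.13 and Pcna -1.06 in cells labelled cKO. Genes of the classical monocyte list (12 measured) had none past the limit under both labels, with medians of 0.54 and 0.33.

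Between members labelled cKO and WT after IR, 25 of 5737 genes were higher in cKO (0.436%) and 27 lower (0.471%). Of 13 G2/M genes, Tacc3 was higher, from 10 UMIs in 9 WT members and 50 UMIs in 38 cKO members, a log2 ratio of 1.64 (0.72 to 2.87). In other monocytes Tacc3 had -0.53 with an interval that spans 0 (-1.30 to 0.19). Cdca3 had 0.86 (0.42 to 1.35) and Ube2c 0.54 (0.19 to 0.91), and the list's median was 0.38 against 0.05 for all genes. Members with 12 or more rule-gene UMIs numbered 33 of 120 in IR cKO and 13 of 77 in IR WT. Per 10000 gene UMIs, G2/M-list UMIs in IR cKO and IR WT were 5.05 and 4.58 at 3 to 4 rule-gene UMIs. They were 8.91 and 7.63 at 5 to 11, and 18.4 and 17.2 at 12 or more. The part of the rule-gene counts in these differences was not tested. The rule gene Birc5 had 0.63 (0.25 to 1.03), which describes the choice of the cells.

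S phase genes went the other way in this comparison. Of 9 measured, 2 were lower in cKO members, with a median of -0.41. Dut, which removes dUTP, had 43 UMIs in IR WT members and 16 in IR cKO members, a log2 ratio of -1.95 (-2.95 to -1.17), and Mcm6 had -1.39 (-2.17 to -0.72). Without the cells with 20 or more S-list UMIs, 7 in IR WT and 3 in IR cKO, Dut had -0.22 and Mcm6 -0.34. Both intervals then span 0. Both genes are in the list that chose the cells left out, so the smaller ratios follow in part from that choice. Without the same cells Tacc3 had 1.67 and Ube2c 0.55.

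The remaining differences between the labels included genes of single cells. Ythdf2 was higher in members labelled cKO by 2.99 (2.63 to 3.40) after IR, and Lyz2 was lower by a log2 ratio of -8.20 (-8.48 to -7.96). Lyz1, a near copy of Lyz2 that can share its reads, was higher by 4.73, with 23 UMIs in IR WT members and 957 in 29 IR cKO members. Ccl5 and Gzma, genes of cytotoxic lymphocytes, were lower, and 104 of 104 and 49 of 50 UMIs in IR WT members lay in 1 cell each. Cxcl10, an interferon-induced chemokine, had 53 UMIs in IR WT, of which 1 cell gave 40, and 3 in IR cKO. Cxcl2, a neutrophil-attracting chemokine, had 158 UMIs in 24 IR WT members and 47 in 14 IR cKO members, a log2 ratio of -2.32 (-2.85 to -1.87), and -2.27 in other monocytes.

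H2-Aa and Cd74 were lower in members labelled cKO after IR by log2 ratios of -1.45 and -1.15, against -0.14 and 0.08 in other monocytes. Without the cells with markers of other types they had -0.04 and -0.03. Some of those cells were left out for UMIs of the MHC class II list, which holds both genes, so the smaller ratios follow in part from that choice. Elane was higher by 1.73 (0.77 to 3.03), from 9 UMIs in 7 members and 48 UMIs in 23 members, and had 0.01 in other monocytes. In the control libraries, members labelled cKO and WT gave 29 genes higher and 12 lower of 653 measured, and 10 and 5 of 466 without the cells with markers of other types.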

How the data were processed

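Single-cell RNA and hashtag libraries of the 2 blood samples (control and IR) were analysed here from matrices in which the authors deposited UMI counts per gene and per hashtag, unfiltered by cell type and not normalized. The submitters' processing notes name Cell Ranger 6.0.1, Seurat 4.0.6 and the mm10 build. The 2 tumor libraries were not used here beyond a comparison of barcodes, of which they shared 12558. Groups were read from the hashtags, with 1 pool of mice a group, so no test was run and no p-value is given. 0 per-sample columns were left unused.

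UMIs were summed over the cells of a group and given as CPM, per 1000000 gene UMIs, with exact Poisson intervals. Shares have Clopper-Pearson intervals, differences of shares Newcombe intervals, and ratios exact conditional binomial intervals, all at 95%. A log2 ratio was taken after adding 1 UMI scaled to depth, on genes with at least 50 UMIs over both sides, and called past 1. A ratio to a group at 0 was bounded with 3 counts. Gene coordinates are mm10. Of 32285 genes, 38 names are duplicated. Of 300 entries in 30 gene lists, 298 matched, and Mx1 and Aldoa did not. The members, lists and thresholds were chosen with earlier results of these data known. Genes named were the rule genes and Ythdf2, Lyz2 and Lyz1, then from each list up to 5 with the largest and 2 with the smallest median log2 ratio, and outside the lists up to 8 (cycling against other) or 6 (other comparisons) in each direction with the largest smallest ratio. Genes named beyond this rule, for their place in a list or for their cell counts, were chosen after their values were seen. Doublets were marked with Scrublet at an assumed 6% and kept. Cells were thinned to 1500 or 8000 UMIs by draws without replacement with a fixed seed. The code was tested on simulated data. Tools were Python 3.11.15, numpy 2.4.6, pandas 2.3.3, scipy 1.17.1, scanpy 1.11.5 and edgeR 4.0.16, the last for TMM factors only.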

Additional observations from a re-analysis of the deposited data

Results flagged for a closer look

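For 5 named genes the difference between IR and control members had opposite signs under the labels, with counting intervals on opposite sides of 0. They are part of 7 such genes among 3346 measured, and the difference between the labels was not tested. Itgb1, an integrin beta chain, had a log2 ratio of -1.10 in cells labelled WT and 1.07 in cells labelled cKO. Prtn3 had 2.30 and -3.45, and without the progenitor-rich control cKO cell the latter was -0.00 (-0.71 to 0.80). The MHC class II genes had H2-Aa -2.43 and 2.59, Cd74 -1.39 and 4.31, and H2-Ab1 -2.44 and at least 1.34, with 1, 2 and 0 UMIs of these genes in control cKO members. In control WT members, 1 cell gave 58 of 59 H2-Aa, 130 of 145 Cd74 and all 39 H2-Ab1 UMIs. Without it the ratios in cells labelled WT were positive, at 3.11 (0.74 to 8.55) for H2-Aa and 1.67 (0.95 to 2.52) for Cd74, and no H2-Ab1 UMI was left in control.

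Monocytes that took neither label lay outside the comparisons. In them 2 of 126 in the control library (1.59%, from 0.193 to 5.62%) and 9 of 103 in the IR library (8.74%, from 4.07 to 15.9%) had 3 or more rule-gene UMIs.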

How the results depend on the processing

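No paired analysis was possible because each group is 1 pool of mice and carries no replicate number, and for the same reason no replicate could be left out. The differences of shares between IR and control and, after IR, between cKO and WT stayed positive under every alternative run. The balance of gene counts did turn. Of the genes between IR and control in cells labelled cKO, 446 were higher and 178 lower, and 133 and 139 when the interval had to exclude 0. Between cKO and WT after IR the split was 25 and 27, and from 24 and 28 to 31 and 18 under alternatives at the same UMI minimum. With at least 5 rule-gene UMIs the share was 3.93 points higher after IR in cells labelled WT and 8.07 in cells labelled cKO, and 145 genes in place of 85 differed in all 4 groups. With cells thinned to 8000 UMIs, an alternative chosen after seeing the data, the differences were 3.71 and 8.64, and with 1500 UMIs they were 0.402, with an interval that spans 0, and 1.70, and 1.54 between cKO and WT after IR. At 1500 UMIs only 0, 2, 4 and 17 cells passed. With 3 UMIs of the S and G2/M lists in place of the rule genes, 81.7% to 91.4% of monocytes passed in each group, so that this measure set few cells apart, and the differences were 5.01, 9.76 and, between cKO and WT, 1.29 after IR (-1.36 to 3.90) and -3.46 in control.

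With genes of at least 20 UMIs the counts of genes were 150 in all 4 groups, 1444 and 1497 between IR and control in cells labelled WT and cKO, against 524 and 624, and 211 and 231 between cKO and WT in control and IR members, against 41 and 52. With an interval that excludes 0 as a further condition, also chosen after seeing the data, the first 3 counts were 31, 181 and 272. Without cells that carry markers of other types, 15 genes differed between cKO and WT control members. The 7 and 9 control members limit every comparison that includes them. The remaining 74 values under alternatives moved by less than their counting interval, or for counts by less than 1.5 times. TMM factors moved the log2 ratios of members against others by -0.36 in control WT and -0.16 in control cKO.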
